A study of Mus musculus with 5 samples.

Results

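The 4 Hox gene clusters were described from 5 lists of chromatin immunoprecipitation sequencing (ChIP-seq) peaks of mouse gliomas. Members were chosen by position: all peaks of the 5 lists that overlapped a Hox window on the mouse build mm9, which were chr6:52090000-52220000 (Hoxa, 130 kb), chr11:96040000-96240000 (Hoxb, 200 kb), chr15:102740000-102880000 (Hoxc, 140 kb) and chr2:74490000-74620000 (Hoxd, 130 kb). These windows held 42 of 258727 peaks: 3 of Olig2, 1 and 2 of acetylated lysine 27 of histone H3 (H3K27ac) in control and Olig2cKO tumours, and 16 and 20 of trimethylated lysine 4 (H3K4me3) in control and Olig2cKO tumours. The tumours were PDGFB-induced brain gliomas on a mixed C57Bl/6;129Sv;CD-1 background, taken 25 days after virus injection. Both genotypes carried floxed P53 (P53f/f), and the Olig2cKO tumours carried floxed Olig2 (Olig2f/f) in addition. Olig2 was mapped in control tumours. Each mark and genotype had 1 library, and the source of Cre, the number of animals behind a library and the loss of Olig2 in the Olig2cKO tumours are not given in, or were not checked from, the sources used here. No difference between genotypes has a replicate check, and no p-value is given.

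Hox genes encode homeodomain transcription factors that set the identity of body segments along the head-to-tail axis. Their order on the chromosome follows the order of their expression domains, with low-numbered genes active nearer the head. In the forebrain the clusters are mostly silent and are a classic target of Polycomb repression, which places methyl groups on lysine 27 of histone H3, the residue that is acetylated at active promoters and enhancers. H3K4me3 marks mainly CpG-rich promoters, and in stem cells it lies at silent Hox promoters together with the Polycomb mark. The Polycomb mark was not analysed here. Olig2 is a basic helix-loop-helix factor of the oligodendrocyte lineage and binds E-boxes.

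All 38 Hox genes of the clusters were found in the RefSeq gene table of the build GRCm38.p6. From the low to the high coordinate on that build, the Hoxa genes ran Hoxa2, Hoxa3, Hoxa4, Hoxa5, Hoxa6, Hoxa7, Hoxa9, Hoxa10, Hoxa11 and Hoxa13. The other clusters ran the other way, from high to low numbers. In Hoxb the order was Hoxb13, Hoxb9, Hoxb8, Hoxb7, Hoxb6, Hoxb5, Hoxb3, Hoxb4, Hoxb2 and Hoxb1, by the first base of each gene. The Hoxc genes ran Hoxc13, Hoxc12, Hoxc11, Hoxc10, Hoxc9, Hoxc8, Hoxc6, Hoxc5 and Hoxc4, and the Hoxd genes ran Hoxd13, Hoxd12, Hoxd11, Hoxd10, Hoxd9, Hoxd8, Hoxd3, Hoxd4 and Hoxd1. The peaks are on mm9, another build than the gene table, and no peak is assigned to a single Hox gene.

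The promoter table held 24 entries for 22 of the 38 genes: 9 of 10 Hoxa genes, 3 of 10 Hoxb, 1 of 9 Hoxc and 9 of 9 Hoxd genes. In the 250 bases before the start, the Hox entries held 2 to 35 CG dinucleotides with a median of 12.5, against a median of 6 over all 32841 promoters of that length. CG counts were above that median of 6 in 19 of the 24 Hox entries. Those furthest above it were Hoxa13 (35 CG), Hoxd13 (31), Hoxa5 (28), Hoxa6 and Hoxd1 (24 each), and the lowest were an entry of Hoxd11 (2), Hoxa9 and Hoxd4 (3 each). The median share of G and C was 58.6% in Hox entries and 52.4% in all promoters. These counts describe the genes and not the peaks, and the absence of 16 genes leaves Hoxb and Hoxc thinly covered.

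The promoter with most CG in each cluster is shown from RefSeq (GRCm38.p6), because CG-rich sequence is where H3K4me3 is usually found. Each runs 5′ to 3′ along its gene and ends at the base before the start, with CG in capitals. Hoxa13 is on the minus strand of chromosome 6, and Hoxb4, Hoxc4 and Hoxd13 are on the plus strands of chromosomes 11, 15 and 2.
Hoxa13: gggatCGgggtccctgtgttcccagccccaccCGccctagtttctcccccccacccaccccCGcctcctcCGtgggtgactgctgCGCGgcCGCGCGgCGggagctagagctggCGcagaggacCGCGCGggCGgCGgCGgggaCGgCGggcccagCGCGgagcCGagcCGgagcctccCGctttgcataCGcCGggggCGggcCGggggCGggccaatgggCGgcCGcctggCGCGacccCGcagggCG
Hoxd13: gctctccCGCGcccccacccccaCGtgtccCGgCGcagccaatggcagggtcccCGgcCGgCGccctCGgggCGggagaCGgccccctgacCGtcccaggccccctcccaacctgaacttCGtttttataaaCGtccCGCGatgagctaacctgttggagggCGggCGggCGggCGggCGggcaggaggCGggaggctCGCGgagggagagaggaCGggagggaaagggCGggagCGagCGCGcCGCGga
Hoxb4: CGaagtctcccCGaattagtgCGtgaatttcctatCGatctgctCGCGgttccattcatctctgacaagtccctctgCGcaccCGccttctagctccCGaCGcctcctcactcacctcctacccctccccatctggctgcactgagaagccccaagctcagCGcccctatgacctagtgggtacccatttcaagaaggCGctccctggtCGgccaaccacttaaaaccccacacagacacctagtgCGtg
Hoxc4: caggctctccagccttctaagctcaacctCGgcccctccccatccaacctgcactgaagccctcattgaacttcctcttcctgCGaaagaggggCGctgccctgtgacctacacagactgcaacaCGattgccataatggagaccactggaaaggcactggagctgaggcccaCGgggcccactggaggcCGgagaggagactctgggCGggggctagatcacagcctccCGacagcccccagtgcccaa
The Hoxa13 and Hoxd13 sequences, of genes known for their role at the far end of the limb, held 35 and 31 CG, while those of Hoxb4 and Hoxc4 held 14 and 8. The E-box CANNTG, which reads the same on both strands, occurred in 17 of the 24 Hox entries (70.8%) and in 66.2% of all promoters. The E-box CAGATG, searched on both strands and itself a form of CANNTG, occurred in 2 of 24 (8.33%), those of Hoxb1 and Hoxb4, and in 14.4% of all promoters.

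**Figure D1:**
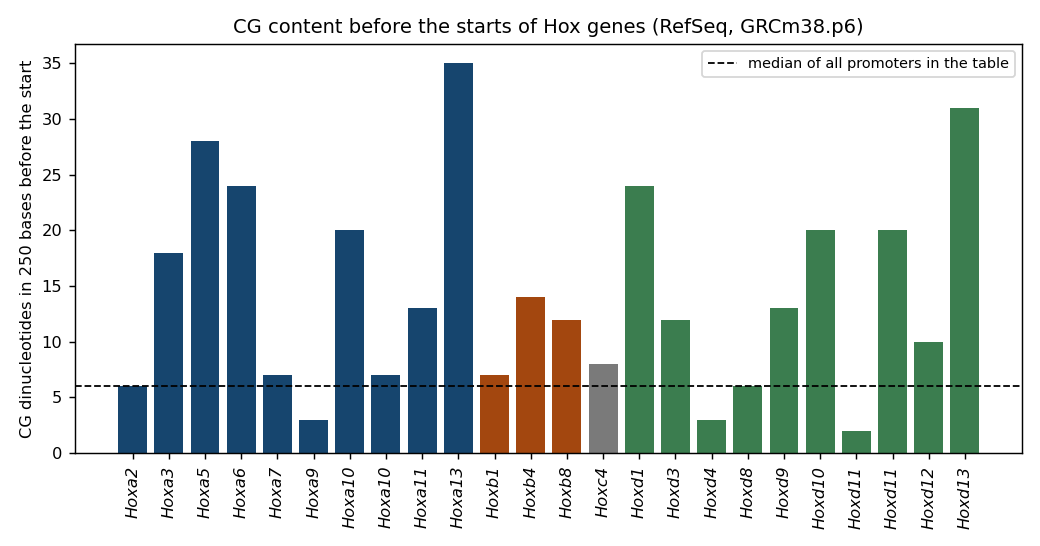
CG dinucleotides (y axis, count) in the 250 bases before each Hox promoter entry (x axis, genes ordered by cluster and number, 1 bar per entry). The dashed line is the median of 6 over all 32841 promoters, and 19 of the 24 bars are above it.

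Acetylation was nearly missing from the Hox clusters in both genotypes. Over 600 kb of windows, H3K27ac was listed at 1 peak in control and 2 peaks in Olig2cKO tumours, and all 3 lay near the low-coordinate end of Hoxa. No H3K27ac peak was listed in Hoxb, Hoxc or Hoxd in either genotype. The windows held 1.67 control and 3.33 Olig2cKO H3K27ac peaks per Mb, against 21.4 and 26.3 per Mb over chromosomes 1 to 19 and X. H3K27ac peaks covered 0.217% of the windows in control and 0.483% in Olig2cKO tumours, against 3.82% and 4.63% of those chromosomes. A region with no peak was below the authors' peak caller threshold, which does not show that the mark was absent.

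H3K4me3 was present in all 4 clusters. Over the 4 windows there were 26.7 peaks per Mb in control and 33.3 per Mb in Olig2cKO tumours, against 16.9 and 18.5 over the chromosomes, but the clusters differed. Hoxa (76.9 and 61.5 per Mb) and Hoxc (28.6 and 42.9) were denser than the chromosomes in both genotypes. Hoxb (5.0 and 15.0) was sparser in both, and Hoxd was sparser in control (7.69) and denser in Olig2cKO tumours (23.1). The Hoxd values rest on 1 and 3 peaks, and the 2 Olig2cKO-only ones scored 54.0 and 55.5, near the lowest score of 50.0. The covered share was close to that of the chromosomes, at 1.88% against 2.36% in control and 3.29% against 2.91% in Olig2cKO tumours. Hoxa held 10 of the 16 control peaks and 8 of the 20 Olig2cKO peaks. Hoxc followed with 4 and 6 peaks, and Hoxb and Hoxd held 1 control and 3 Olig2cKO peaks each. In Hoxa, H3K4me3 covered 5.96% of the window in control and 8.67% in Olig2cKO tumours, and in Hoxb, the longest window, 0.343% and 0.949%.

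**Figure D2:**
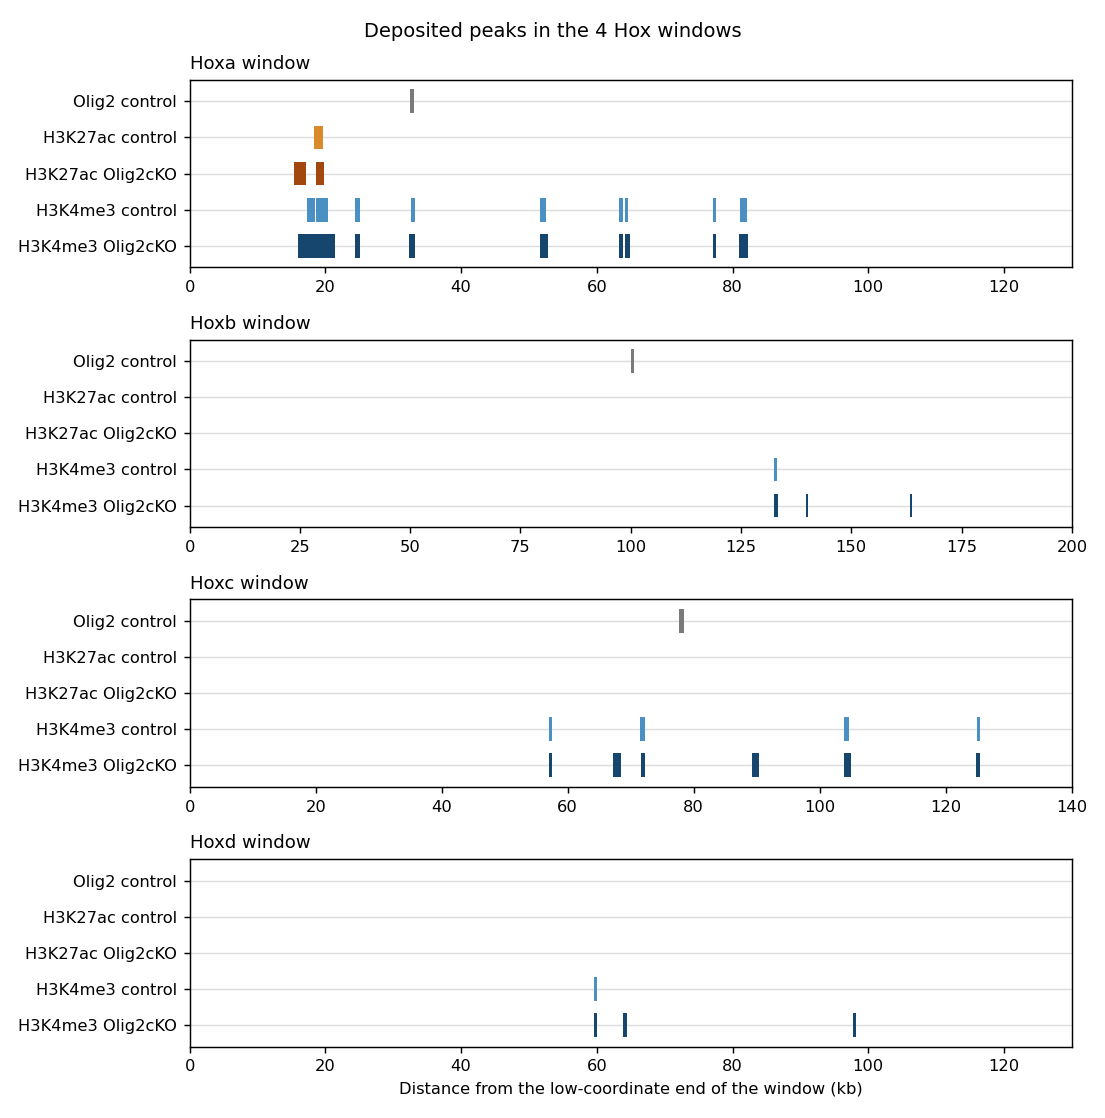
Peaks of the 5 lists (rows) in each Hox window, drawn to scale against the distance from its low-coordinate end (x axis, kb). H3K27ac appears in Hoxa alone, between 15.4 and 19.9 kb, while H3K4me3 appears in all 4 windows.

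**Figure D3:**
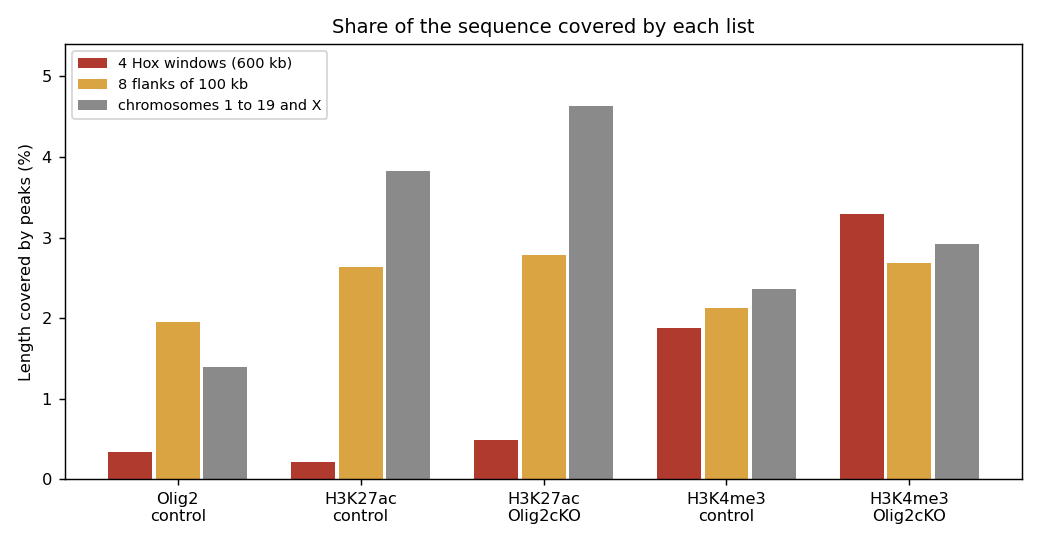
Share of the sequence covered by peaks (y axis, %) for each list in the 4 Hox windows, in the 8 flanks of 100 kb beside them and over chromosomes 1 to 19 and X (1 library per list, no error bars). For H3K27ac the windows stand at 0.217% and 0.483%, and for H3K4me3 they stand at 1.88% and 3.29%, within 1 percentage point of the chromosomes.

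The H3K4me3 peaks of the clusters were weak and narrow in their own lists. Scores are those of the authors' peak caller and are not scaled between libraries, so each was read only within its list. The median score of the Hox peaks was 93.96 in control tumours, where the whole list had 345, and 130 in Olig2cKO tumours, where the whole list had 328. In control tumours 9 of 16 Hox peaks scored at or below the lower quartile of the list, 3 were above its median and 0 were in its highest decile. In Olig2cKO tumours the counts were 10, 4 and 0 of 20. The median width was 612 bp against 1104 bp in the control list and 690.5 bp against 1211 bp in the Olig2cKO list. Only 2 of 16 control and 3 of 20 Olig2cKO Hox peaks were wider than the median of their list. All Hox peaks above the list median in control tumours, and 3 of the 4 in Olig2cKO tumours, lay in Hoxa, and the other lay in Hoxc.

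**Figure D4:**
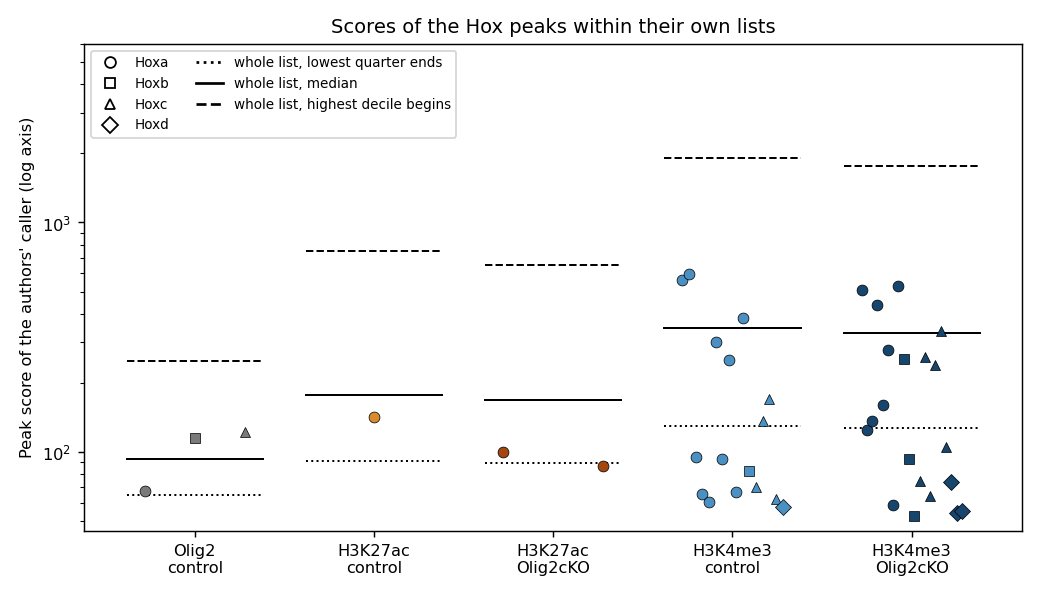
Score of each Hox peak (y axis, log scale) in its own list (x axis, 1 library each), with the cluster as the symbol. Lines give the lower quartile, the median and the start of the highest decile of the whole list, and no Hox peak reaches the highest decile of its list.

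H3K4me3 in the clusters rarely lay with H3K27ac. Of the 16 control H3K4me3 peaks, 2 (12.5%, exact 95% interval 1.55 to 38.3) overlapped a control H3K27ac peak by at least 1 bp, where 66.6% of the whole list did. Of the 20 Olig2cKO H3K4me3 peaks, 1 (5.0%, 0.127 to 24.9) overlapped an Olig2cKO H3K27ac peak, where 66.7% of the whole list did. Since most Hox peaks were weak, the share was also taken over all peaks with scores between the lowest and the highest Hox score. It was 57.6% in control tumours (scores 57.4 to 597, 26340 peaks) and 57.6% in Olig2cKO tumours (scores 52.6 to 528, 29631 peaks). Both shares lie above the Hox intervals, but this range is wider than where most Hox peaks lie. At or below the lower quartile of the score, 0 of 9 control Hox peaks carried H3K27ac, where 51.5% of all such peaks did, and 0 of 10 in Olig2cKO tumours, where 51.3% did. Between the lower quartile and the median the counts were 0 of 4 (all peaks 59.4%) and 0 of 6 (60.7%). Between the median and the upper quartile they were 2 of 3 (66.5%) and 1 of 4 (66.1%), and no Hox peak scored higher. The intervals allow for counting error alone, and peaks of the same cluster are not independent of each other.

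When the 4 histone lists were merged, the windows held 20 regions: 8 in Hoxa, 6 in Hoxc and 3 each in Hoxb and Hoxd. H3K4me3 in both genotypes without H3K27ac was found in 13 of them (65.0%, 40.8 to 84.6), a state of 9.94% of the 91232 regions of the series. Another 6 (30.0%, 11.9 to 54.3) held H3K4me3 in Olig2cKO tumours and no other mark, a state of 5.30% of all regions. The remaining region (5.0%, 0.127 to 24.9) held both marks in both genotypes, which 26.1% of all regions did. No Hox region held H3K27ac alone. Over the series 17.3% of regions held it alone in Olig2cKO tumours, 7.96% in control and 18.5% in both. The shares over all regions are therefore not shares of regions with H3K4me3. Among Olig2cKO H3K4me3 peaks, the 30.0% without a control partner compares with 21.4% of the whole list and 33.0% in the Hox score range.

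The region with both marks was the longest Hox region, chr6:52105409-52111445 in Hoxa, 6037 bp long and 15.4 to 21.4 kb from the low-coordinate end of its window. Control tumours had 2 H3K4me3 peaks there, chr6:52107333-52108498 (1166 bp, score 562) and chr6:52108593-52110423 (1831 bp, score 597), the highest control score in the clusters. In Olig2cKO tumours 1 peak, chr6:52106045-52111445 (5401 bp, score 505), spanned both, and 98.6% of its list was narrower. It was the widest peak of the clusters in any list. The control H3K27ac peak, chr6:52108366-52109666 (1301 bp, score 142), overlapped both control H3K4me3 peaks, by 133 and 1074 bp. Its score was above 41.9% of its list. Olig2cKO tumours had an H3K27ac peak at the same place, chr6:52108640-52109850 (1211 bp, score 86.6), which shared 1027 bp with it. They had a second one nearer the edge, chr6:52105409-52107097 (1689 bp, score 99.6), with no control partner. That gave 0 of 1 control and 1 of 2 Olig2cKO H3K27ac peaks without a partner, where 17.9% and 30.9% of the lists had none. With so few peaks these shares cannot be compared. No Olig2 peak overlapped the region.

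All 16 control H3K4me3 peaks of the clusters had a partner in the Olig2cKO list, which is the longer of the pair. The count of 0 control-only peaks allows a share of up to 18.8%, and the whole list had 8.13%, so a difference was not detectable with 16 peaks. Of the 20 Olig2cKO peaks, 6 (30.0%, 11.9 to 54.3) had no control partner, against 21.4% of the whole list and 33.0% of the peaks in their score range. The Hox share is near both. When the genotype lists were cut to equal length by score, 2 of 16 control peaks (12.5%) and 3 of 15 Olig2cKO peaks (20.0%) had no partner, in place of 0 and 6. By cluster, 0 of 8 Olig2cKO peaks in Hoxa, 2 of 3 in Hoxb, 2 of 6 in Hoxc and 2 of 3 in Hoxd were Olig2cKO-only.

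The 6 Olig2cKO-only peaks differed in strength. Those in Hoxc were the strongest, chr15:102807230-102808461 (1232 bp, score 260) and chr15:102829250-102830401 (1152 bp, score 239), and stood above 43.8% and 41.5% of the list. Those in Hoxb were chr11:96179756-96180256 (501 bp, score 93.4) and chr11:96203292-96203867 (576 bp, score 52.6). Those in Hoxd were chr2:74553917-74554434 (518 bp, score 54.0) and chr2:74587778-74588239 (462 bp, score 55.5), above 2.4% and 3.2% of the list by score. None of the 6 overlapped an Olig2 or an H3K27ac peak. Over the series, 4837 merged regions held H3K4me3 in Olig2cKO tumours and no other histone mark. With H3K4me3 in Olig2cKO tumours alone, 1998 regions also held Olig2cKO H3K27ac, 261 control H3K27ac and 2999 both. The share of all Olig2cKO-only H3K4me3 peaks with Olig2 was not computed, so the absence is not shown to be particular to the clusters. The lowest score in any list was 50.0, so the weakest of these peaks lay just past the threshold of the peak caller.

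**Figure D5:**
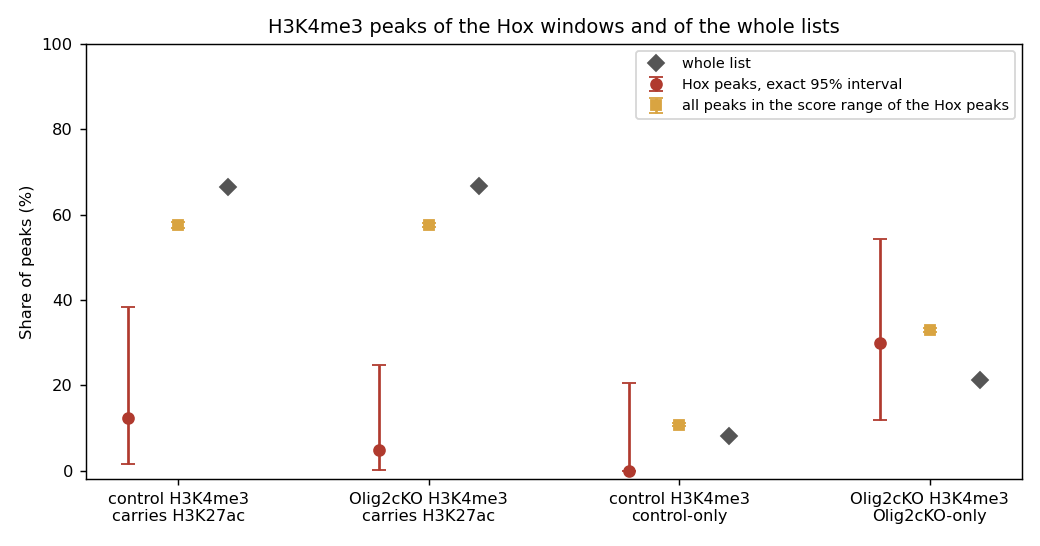
Share of H3K4me3 peaks (y axis, %) that carry H3K27ac of the same genotype or have no partner in the other genotype, for the Hox peaks with exact 95% intervals (n = 16 control, 20 Olig2cKO), for all peaks in their score range with the same kind of interval, and for the whole lists. The Hox shares with H3K27ac, 12.5% and 5.0%, lie below both backgrounds, and the genotype-only shares, 0% and 30.0%, have intervals that include both.

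In 12 places of the windows 1 control H3K4me3 peak overlapped 1 Olig2cKO peak. The Olig2cKO peak was the wider one in 10 of 12 pairs (83.3%, 51.6 to 97.9), as it was in 76.7% of 35250 pairs over the whole series. By the median, the Hox pairs were 131 bp wider in Olig2cKO tumours and all pairs 150 bp wider. The 2 exceptions were both in Hoxc: the control peak chr15:102797023-102797502 (480 bp) had a partner of 456 bp, and chr15:102811490-102812197 (708 bp) had a partner of 583 bp.

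The Hoxa peaks lay in the low-coordinate part of the window, on the side where the gene order of GRCm38.p6 begins with Hoxa2. The last region, chr6:52170990-52172281, ended 82.3 kb from that edge. It carried the strongest Olig2cKO peak of the clusters (1292 bp, score 528) and a control peak at chr6:52171063-52172099 (1037 bp, score 383). From there to the high-coordinate edge, 47.7 kb (36.7% of the window) held no histone peak in either genotype, and this is the side where Hoxa13 ends the gene order. Other Hoxa regions in both genotypes included chr6:52141568-52142791, where the control list had 2 peaks (scores 60.6 and 301) and the Olig2cKO list 1 (1132 bp, score 438). The 2 neighbouring regions chr6:52153208-52153847 and chr6:52154125-52154868 had control scores of 93.0 and 251 and Olig2cKO scores of 159 and 278. The remaining Hoxa pairs were weak in both lists: chr6:52114417-52115041 (625 bp, score 94.9) had a partner of 753 bp and score 125, and chr6:52167125-52167560 (436 bp, score 66.9) a partner of 477 bp and score 58.6.

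In Hoxb and Hoxd the bare side was the other one in coordinates. The first 132.5 kb of the Hoxb window (66.2%) held no histone peak, and the Hoxb13 end of the gene order lies on that side. The single control H3K4me3 peak of Hoxb, chr11:96172510-96173195 (686 bp, score 82.5), had a partner of 820 bp and score 253. In Hoxd the first 59.6 kb (45.9%), on the Hoxd13 side, held none. Its single shared peak, chr2:74549656-74550099 (444 bp, score 57.4), had a partner of 462 bp and score 73.7. The Hoxc window was bare over its first 57.0 kb (40.7%), on the Hoxc13 side. The strongest shared Hoxc peak was chr15:102843923-102844703 (781 bp, score 170), with a partner of 1032 bp and score 335. The other 3 shared Hoxc peaks had control scores of 70.3, 136 and 62.1 and Olig2cKO scores of 74.7, 64.0 and 105, in the order of their coordinates. With the histone lists of both genotypes merged, the longest stretch without a peak lay in each of the 4 windows on the side of the number 13. This did not hold in Hoxd for control tumours alone, where the longer bare part of the window (53.8%) was on the Hoxd1 side, above the single peak there. In the merged lists that side is broken by the 2 Olig2cKO-only peaks with scores of 54.0 and 55.5. Window edges set part of these lengths. Whether the windows reach past the last gene on mm9 was not checked, so part of a stretch may lie outside the genes.

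Few Olig2 peaks lay in the clusters. The 3 peaks amount to 5.0 per Mb, against 14.9 per Mb over chromosomes 1 to 19 and X. The Hoxa peak, chr6:52122441-52123108 (668 bp, score 67.3), overlapped H3K4me3 in both genotypes, by 534 bp of the control peak chr6:52122575-52123219 (645 bp, score 65.3) and over its whole length by the Olig2cKO peak chr6:52122371-52123236 (866 bp, score 136). The Hoxb peak, chr11:96140122-96140655 (534 bp, score 115), and the Hoxc peak, chr15:102817606-102818433 (828 bp, score 122), overlapped no histone peak. Hoxd held no Olig2 peak. Thus 1 of 3 Olig2 peaks (33.3%, 0.840 to 90.6) carried control H3K4me3 and 0 of 3 carried control H3K27ac, where 55.6% and 68.9% of all Olig2 peaks did. With 3 peaks neither share can be told from the background. All 3 were narrower than the list median of 834 bp, and 2 were above its median score of 93.4.

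The surroundings differed from the clusters. The 8 flanks of 100 kb, 800 kb in all, held 12 H3K27ac peaks in each genotype (15.0 per Mb, covering 2.64% in control and 2.78% in Olig2cKO tumours) and 18 Olig2 peaks (22.5 per Mb). The low-coordinate flank of Hoxa held 5 of the 12 in each genotype, covering 13059 of 21082 bp in control and 14649 of 22273 bp in Olig2cKO tumours, with scores of 395 to 2169 in control and 596 to 2450 in Olig2cKO tumours. The one nearest to the window, chr6:52068272-52070971 in control tumours (2700 bp, score 963), ended 19.03 kb before it, and its Olig2cKO counterpart (2543 bp, score 1021) 19.1 kb before it. The high-coordinate flank of Hoxc held 4 in each genotype, and the other 6 flanks held 0 or 1 each. H3K4me3 peaks were less dense in the flanks (21.3 and 22.5 per Mb) than in the windows (26.7 and 33.3 per Mb), and their median scores there, 394 and 379, were above the list medians.

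The H3K27ac-free stretch around each cluster was long in both genotypes. In control tumours 326.9 kb around Hoxb, 290.2 kb around Hoxc and 245.5 kb around Hoxd lay between neighbouring H3K27ac peaks, and 257.3 kb ran from the acetylated Hoxa region over the rest of that window and beyond. The median distance between neighbouring peaks of the list was 15.5 kb, and 1.67%, 2.01%, 2.50% and 2.35% of distances were longer than these. In Olig2cKO tumours the stretches were 567.8, 289.7, 245.5 and 172.5 kb in the same order, where the median was 13.0 kb and 0.566%, 1.46%, 1.87% and 2.97% of distances were longer. Each stretch was the one taking up most of its window, so around a window without H3K27ac it had to be longer than that window. The percentages count distances and not bases, so they do not give how much of the genome lies in stretches this long. The Hoxc and Hoxd stretches ended at nearly the same positions in both genotypes. Around Hoxb the control stretch ended at a weak peak, chr11:96264983-96265665 (683 bp, score 54.3), and on the high-coordinate side of Hoxa the Olig2cKO stretch ended at chr6:52282399-52283599 (1201 bp, score 305).

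Window edges decided membership for a few peaks. The nearest histone peak outside was a control H3K4me3 peak 0.498 kb above the Hoxa window, chr6:52220499-52221106 (608 bp, score 53.7), and an Olig2 peak lay 0.479 kb above it, chr6:52220480-52221084 (605 bp, score 64.2). Among the nearest peaks of each histone list on each side of each window, the next was 19.03 kb away. The outermost H3K27ac member, in Olig2cKO tumours at Hoxa, started 15.4 kb inside the edge, and the H3K27ac peak nearest to the outside of Hoxb, Hoxc or Hoxd was 25.0 kb away.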

How the data were processed

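The authors deposited 1 peak list per ChIP-seq library, 5 in all, with a score per peak that their peak caller gave. CASAVA, Bowtie2 and MACS are named for mm9 per the submitters' processing notes, with no version or setting, and they do not say whether an input library was used. The scale of the score is not stated; the lowest score per list was 50.0 to 50.02. Read depth is unknown, so precision rests on the number of peaks, and widths and counts can depend on depth. No peak ran past its mm9 chromosome length (GenomeInfoDb 1.38.1).

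Peaks were shared when they overlapped by at least 1 bp (Python 3.11.15, numpy 2.4.6, pandas 2.3.3). All 8 overlap counts were identical in bedtools 2.31.1, and the overlap code was tested on simulated data. Shares carry exact Clopper-Pearson intervals at 95% (scipy 1.17.1), and a count of 0 was read as allowing up to 3. Positions count from 1. Figures used matplotlib 3.10.9.

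The clusters, windows and lists were chosen with earlier results of these data known. Named regions were, per window, the highest-scoring and widest peaks, all Olig2 and genotype-only peaks, the longest region and the longest stretch without a histone peak. Other regions, the flanks, the score-range and score-quartile shares, the stretches without H3K27ac and the promoter features were chosen after their values could be seen. Tumour identity was not checked against marker genes, since no gene was placed on mm9. Alternatives were stronger peaks alone, lists of equal length, other overlap rules, merged peaks and other window edges. The genotypes are not reported in full here.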

Additional observations from a re-analysis of the deposited data

How the results depend on the processing

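Of 104 alternative values over 18 results, 86 stayed close to the reported ones, meaning inside the exact interval of a share or within 1.5 times a count or length. This tally is a weak check. Shares of 1 to 3 peaks have intervals that most values cannot leave. Olig2 peaks with H3K27ac went from 0 of 3 (interval 0 to 70.8%) to 4 of 12 (33.3%) in wider windows and still counted as close. Taking only peaks wholly inside a window repeated every value, and cutting to equal length left the Olig2 list unchanged. Cutting each pair of genotype lists to equal length changed the H3K4me3 peaks without a partner from 0 of 16 to 2 of 16 (12.5%) in control and from 6 of 20 to 3 of 15 (20.0%) in Olig2cKO tumours, and wider windows gave 2 of 24 (8.33%) and 8 of 28 (28.6%). These stay inside the wide intervals. No computed value left these limits when lists were cut to equal length, when sharing required 50% of the shorter peak or allowed a gap of 1 kb, when peaks up to 1 kb apart were joined, or when only peaks wholly inside a window were taken. Taking the upper 50% of each list left 0 H3K27ac peaks (0 bp) in either genotype. It left 3 control H3K4me3 peaks (4034 bp) and 4 Olig2cKO H3K4me3 peaks (8857 bp), and 0% of the Olig2 peaks left carried H3K4me3. Of these H3K4me3 peaks 0% carried H3K27ac, by construction, since no H3K27ac peak was left. Against the full H3K27ac lists, 2 of the 3 control and 1 of the 4 Olig2cKO peaks carried it. With the upper 50% of each list, the shares of H3K27ac peaks without a partner could not be computed. Widening the windows by 50 kb on each side gave 12 Olig2 peaks (9565 bp), 6 control H3K27ac peaks (8827 bp) and 6 Olig2cKO H3K27ac peaks (9842 bp), and 17665 bp of control H3K4me3, by construction from peaks of the flanks. No paired analysis was possible because each group has 1 library. Depth is unknown, and with 1 to 20 peaks per list a genotype difference smaller than the intervals was not detectable.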
